A study of Gallus gallus with 15 samples.

Results

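Abdominal fat of chicks whose insulin had been neutralized was compared with fat of chicks fed ad libitum. The comparison took 10 of the 15 Affymetrix Chicken Genome arrays of the series, 5 insulin-neutralized and 5 fed, chosen by the treatment given in their labels. The birds were male ISA915 meat-type broilers aged 16 to 17 days, and each group had 5 birds, 1 array each. Fed birds kept free access to feed and received normal porcine serum as a vehicle. Insulin-neutralized birds kept free access to feed and received porcine anti-insulin serum at 0, 2 and 4 h. The 5 remaining arrays came from birds fasted for 5 h and given normal porcine serum. They shared the statistical fit and are shown beside the insulin-neutralized birds where the comparison needs them. No genetic change, sort or cell isolation was involved, so every level below is that of whole fat tissue, in which fewer cells of a type and less RNA per cell cannot be told apart.

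Insulin binds a receptor tyrosine kinase on the fat cell and acts through phosphatidylinositol 3-kinase and AKT. In mammals this favours the uptake of glucose, the building of triacylglycerol and of protein, and holds back lipolysis, autophagy and the FOXO transcription factors. When insulin falls, pyruvate dehydrogenase kinases switch off the entry of pyruvate into the citrate cycle, and fatty acids take over as fuel. Chicken fat differs from that of rodents in that most fatty acid synthesis takes place in the liver, that insulin is not known to inhibit lipolysis, and that glucagon is the main lipolytic hormone. An acute block of insulin in a bird with free access to feed therefore sets the loss of the hormone apart from the withdrawal of feed. It does not isolate insulin from other hormones. The study reported raised plasma glucagon in both insulin-neutralized and fasted birds. It could not exclude that some of the changes shared by both groups were secondary to such systemic factors.

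Values are log2 levels after the authors' GCRMA normalization, on a scale that ran from 2.18, the floor shared by undetected probe sets, to 16.4. Of 38535 probe sets, 18612 passed the filter on low values and 14940 of these had a single gene symbol, covering 9243 genes. A probe set was called where the limma test gave a Benjamini-Hochberg adjusted p under 0.05 over all 18612. Fed birds 4 and 5 stood apart. Their mean correlation with the other arrays was 0.955 and 0.958 against 0.963 to 0.977 for the 13 others, and their poly-A control RNAs read 8.99 and 8.75 against 7.98 to 8.54. The mean poly-A level did not separate the groups (8.23 ± 0.18 in insulin-neutralized and 8.49 ± 0.41 in fed birds, SD, n = 5 each, exact permutation test, two-sided, p = 0.262). Values of named genes that moved by over 1.5 times without these birds are given both ways.

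Insulin neutralization was accompanied by a small set of changes, most of them under 2-fold. The fat of insulin-neutralized birds carried more mRNA for the pyruvate dehydrogenase kinase PDK4, for the F-box protein FBXO8 and for proglucagon (GCG), and less for the last enzyme of triacylglycerol synthesis, DGAT2, for the glucagon receptor (GCGR) and for several protein folding factors. In all, 92 probe sets were called, 0.494% of those tested, of which 50 were higher (0.269%) and 42 lower (0.226%) than in fed birds. The 75 with a symbol stood for 65 genes, 29 higher and 36 lower. Among the 92, the median size of the difference was 0.72 on the log2 scale, 67 reached 1.5-fold and 15 reached 2-fold. In 90 of the 92 the 5 insulin-neutralized values lay wholly above or below the 5 fed values, which was so for 4.04% of all probe sets. With 1 probe set for each gene, 0.281% of all genes were called higher and 0.314% lower.

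**Figure D1:**
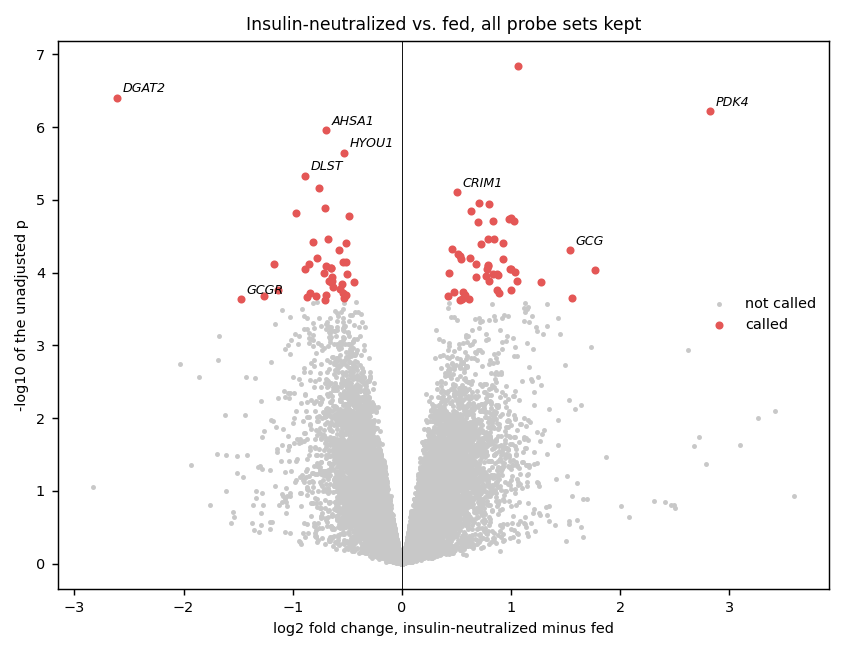
Each point is 1 of the 18612 probe sets. The x axis is the log2 fold change of insulin-neutralized minus fed birds, the y axis is the -log10 of the unadjusted limma p, and the 92 called probe sets are red. Most red points lie within 1 log2 unit of 0, with PDK4 (2.82) and DGAT2 (-2.61) farthest out among the called ones.

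The calls sat close to the limit of what 5 birds a group could separate. Of the 92, 24 had an adjusted p above 0.04, and 257 further probe sets lay between 0.05 and 0.1. Leaving out insulin-neutralized birds 1 to 5 in turn ended 85, 84, 83, 72 and 66 of the 92 calls, leaving out fed birds 1 to 5 ended 63, 15, 27, 64 and 46, and leaving out fasted birds 1 to 5 ended 31, 5, 39, 48 and 26. The total called then ranged from 7 to 142. No difference among the 92 changed direction in any of these fits. The 6 probe sets called in all 15 of them were those of PDK4, DGAT2, AHSA1, HYOU1 and DLST and the dimmer of the called FBXO8 pair. The p-values set each difference against the spread between birds within groups, pooled over all 3 groups and moderated across probe sets. Without fed birds 4 and 5 together, 31 probe sets were called, 18 of them among the 92, and the size of the 92 differences was a median 0.892 times that with all birds. Over all genes 771 were higher and 1083 lower at an unadjusted p under 0.05, and 436 and 618 when these 2 birds were left out.

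Among genes of fuel choice, PDK4 differed most. It encodes the kinase that phosphorylates and inactivates the pyruvate dehydrogenase complex, and is a FOXO target in mammals. Fed birds 1 to 5 read 10.76, 10.80, 10.41, 9.47 and 11.73, and insulin-neutralized birds 1 to 5 read 14.09, 13.64, 13.17, 13.56 and 12.81. The lowest insulin-neutralized bird lay well above the highest fed bird. The difference was 2.82 ± 0.33 (log2, SE), or 7.06-fold (adjusted p = 0.00375), and 2.80 without fed birds 4 and 5. Fasted birds read higher still, 14.74 ± 0.18 (SD, n = 5), and the insulin-neutralized birds lay 1.29 below them (adjusted p = 0.042).

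The rest of the pyruvate dehydrogenase system was not called. Of the 10 measured genes of this group, PDK4 alone passed the test. The kinases PDK1 and PDK3 differed by 0.02 and 0.05, the phosphatases PDP1 and PDP2 by 0.07 and 0.69, and the E3-binding protein PDHX by 0.33. Without fed birds 4 and 5 the PDK1, PDK3 and PDP1 values turned to -0.11, -0.05 and -0.07, and those of PDP2 and PDHX fell to 0.15 and 0.02. The subunits DLD (-0.30), PDHB (-0.19) and the E1 alpha subunit listed as PDHA2 (-0.19), and the pyruvate carrier MPC2 (-0.20), had adjusted p-values from 0.171 to 0.342, and DLD was at -0.18 without those birds.

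One step further on, the citrate cycle gene DLST fell. It encodes the succinyltransferase core of the 2-oxoglutarate dehydrogenase complex. Fed birds read 10.28, 9.93, 9.74, 10.13 and 10.11, insulin-neutralized birds 9.34, 9.12, 8.91, 9.03 and 9.35, with no overlap. The difference was -0.89 ± 0.12, or 1.85-fold lower (adjusted p = 0.0145), it was -0.97 in a further called probe set of the gene, and fasted birds averaged 9.26. Of 16 citrate cycle genes DLST was the single call, and 7 of the 16 were lower at an unadjusted p under 0.05 and none higher, where 11.7% of all genes were lower at that p. The list's median was -0.22 against -0.03 over all genes, and -0.12 without fed birds 4 and 5, where 3 members were lower at an unadjusted p under 0.05. MDH2 (-0.37) and OGDH (-0.58, or -0.37 without those birds) had adjusted p-values of 0.0887 and 0.175.

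Glycolysis held no call. Of its 21 measured genes 6 were lower at an unadjusted p under 0.05, none was higher, and the median was -0.16. Without fed birds 4 and 5 the count was 3 and the median -0.04. PGAM1 (-0.49), TPI1 (-0.46), ALDOC (-0.53) and HK1 (-0.49) had the smallest p-values, with adjusted values from 0.0958 to 0.144. With fed birds 4 and 5 left out, PGAM1, ALDOC and HK1 were at -0.31, -0.35 and -0.30. Glycogen handling was not counted as a list and included a called gene. PPP1R3B, which brings protein phosphatase 1 to glycogen, fell from 10.69 ± 0.22 to 9.98 ± 0.23 (SD, n = 5 each), with fed birds between 10.43 and 11.02 and insulin-neutralized birds between 9.63 and 10.27. The groups did not overlap, and the difference was -0.71 ± 0.13 (adjusted p = 0.0352). Fasted birds read 8.26 to 8.68, below every insulin-neutralized bird, and insulin-neutralized birds averaged 1.57 above them (adjusted p = 7.18e-05).

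Among lipid genes, DGAT2 had the largest fall among the called probe sets. Its product adds the third fatty acid to diacylglycerol. Fed birds read 10.70, 11.37, 11.33, 10.77 and 11.19, and insulin-neutralized birds 8.12, 8.74, 8.77, 8.35 and 8.33. Every insulin-neutralized bird lay far below every fed bird. The difference was -2.61 ± 0.29, or 6.1-fold lower (adjusted p = 0.00367), and -2.67 without fed birds 4 and 5. Fasted birds spread from 6.84 to 8.50 and did not differ by the test from the insulin-neutralized birds (0.79, adjusted p = 0.17). A further DGAT2 probe set differed by -0.45 (adjusted p = 0.276), so the size of the fall differed between probe sets of the gene.

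The other triacylglycerol genes did not follow as a group. Of 18 measured members DGAT2 was the single call, 2 were higher and 5 lower at an unadjusted p under 0.05, and the median was -0.04. The acyltransferases AGPAT2 (-0.48, adjusted p = 0.0766), GPAT3 (-0.71, adjusted p = 0.169) and MOGAT1 (-0.74, adjusted p = 0.217) read lower, AGPAT2 by -0.30 with fed birds 4 and 5 left out. MOGAT1 was not far above the floor, at 3.35 to 4.39 in fed and 2.51 to 3.46 in insulin-neutralized birds, and its groups overlapped. The phosphatidate phosphatase LPIN1 read higher, at 4.80 to 5.91 against 3.21 to 4.64 in fed birds (1.20 ± 0.30, adjusted p = 0.0812), and no bird of either group reached the 7.57 to 8.53 of fasted birds. LPIN1 differed between insulin-neutralized and fasted birds (-2.72, adjusted p = 0.000205).

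Genes of lipid breakdown and fatty acid synthesis gave few signals. None of 13 lipolysis and lipid droplet genes and none of 18 fatty acid synthesis genes was called. In the first group AQP9, a glycerol channel, differed by 0.94 (adjusted p = 0.217) and the droplet protein CIDEC by -0.56 (adjusted p = 0.205), G0S2, an inhibitor of the lipase ATGL, by -0.27, and PRKACB, a catalytic subunit of protein kinase A, by 0.63. The PRKACB and AQP9 values were 0.10 and 0.49 without fed birds 4 and 5. In the second group ACLY, which makes cytosolic acetyl-CoA, differed by -0.57 (adjusted p = 0.0887), and ELOVL6, FADS1 and PGD by 0.50, -0.54 and -0.25. With fed birds 4 and 5 left out, ACLY was at -0.36, ELOVL6 at 0.19 and PGD at -0.12.

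Of 30 fatty acid oxidation genes 1 was called, ACBD5, a peroxisomal acyl-CoA binding protein that in humans is needed for the breakdown of very long chain fatty acids. Fed birds read 11.17, 11.06, 10.92, 10.51 and 11.22, insulin-neutralized birds 11.87, 11.99, 11.63, 11.49 and 11.76. The groups did not overlap, the difference was 0.77 ± 0.15 (adjusted p = 0.0359), and a further called ACBD5 probe set gave 0.79. The 4 kept ACBD5 probe sets, 2 of them called, ran from 0.17 to 0.79. The peroxisomal fatty acid transporter ABCD2 differed by 0.59 (adjusted p = 0.166), against 2.33 in fasted birds (adjusted p = 1.19e-05). ACOT8, HADHB and PPARD read lower, by -0.45, -0.34 and -0.44, with adjusted p-values from 0.0994 to 0.167. In the list as a whole 2 genes were higher and 7 lower at an unadjusted p under 0.05, and 2 and 2 without fed birds 4 and 5, where HADHB was at -0.20.

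A pair of enzymes outside these lists also rose. CEPT1, which makes phosphatidylcholine and phosphatidylethanolamine, read 10.55 ± 0.17 in fed and 11.13 ± 0.21 in insulin-neutralized birds (SD, n = 5 each; 0.58 ± 0.12, adjusted p = 0.0462). It was among the 2 called probe sets whose groups overlapped, since fed bird 4 and the lowest insulin-neutralized bird both read 10.84. AOX1, aldehyde oxidase, read 3.61, 3.09, 3.46, 3.61 and 2.57 in fed birds, not far above the floor, and 4.38, 4.23, 4.90, 4.90 and 5.74 in insulin-neutralized birds (1.56 ± 0.32, adjusted p = 0.0473). The calls of DGAT2, PDK4 and DLST held without each bird. Those of PPP1R3B, ACBD5, CEPT1 and AOX1 ended without 9, 11, 13 and 13 of the 15 birds, each left out singly. Among these birds were each of insulin-neutralized birds 1 to 4, and adjusted p-values ran up to 0.114, 0.118, 0.134 and 0.109.

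**Figure D2:**
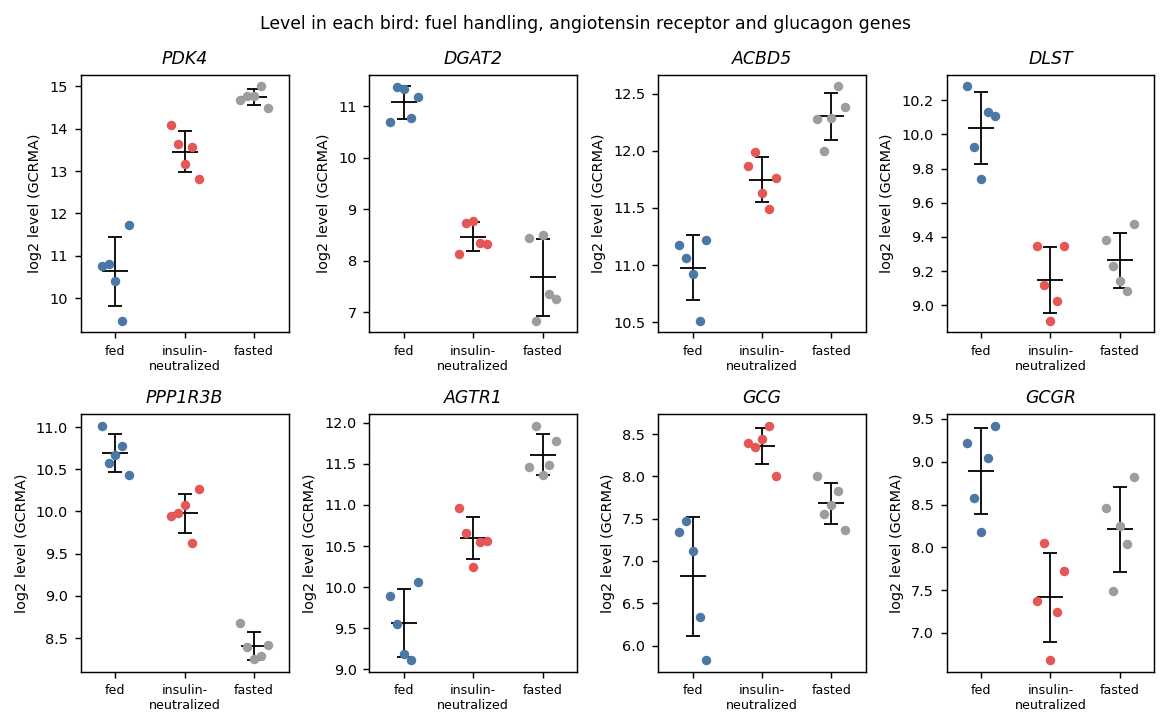
Log2 level (y axis) in each bird, with 5 points a group for fed, insulin-neutralized and fasted birds, and bars at the mean ± SD. PDK4, ACBD5 and AGTR1 stepped up from fed to insulin-neutralized to fasted birds, DGAT2 and PPP1R3B stepped down, and the insulin-neutralized birds were the highest group for GCG (mean 8.36) and the lowest for GCGR (mean 7.42).

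The glucagon pair moved in opposite directions. GCG encodes proglucagon, the precursor of glucagon and of the glucagon-like peptides, which in chickens is expressed in the pancreas, the proventriculus and fat among other tissues, and GCGR encodes the receptor through which glucagon drives lipolysis in chicken fat cells. GCG read 7.34, 7.47, 7.11, 6.34 and 5.83 in fed birds and 8.40, 8.35, 8.44, 8.60 and 8.01 in insulin-neutralized birds. All 5 insulin-neutralized birds lay above all fed birds, and fed birds 4 and 5 were the lowest. The difference was 1.54 ± 0.27, or 2.91-fold (adjusted p = 0.0316), and 1.05 without fed birds 4 and 5 (adjusted p = 0.0304). Fasted birds lay between, at 7.68 ± 0.24 (SD, n = 5; 0.86 against fed birds, adjusted p = 0.0583; insulin-neutralized minus fasted 0.68, adjusted p = 0.194).

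GCGR read 9.22, 8.57, 8.18, 9.04 and 9.42 in fed birds and 7.37, 8.05, 6.68, 7.24 and 7.73 in insulin-neutralized birds. The groups were separated by the narrow gap between fed bird 3 and insulin-neutralized bird 2. The difference was -1.47 ± 0.30, or 2.77-fold lower (adjusted p = 0.0476), and -1.24 without fed birds 4 and 5 (adjusted p = 0.208). Fasted birds read 7.49 to 8.82 and were not called against either group (-0.68 against fed, adjusted p = 0.18). The GCG call ended without fed bird 4 or without any of insulin-neutralized birds 1 to 4 (adjusted p up to 0.106). The GCGR call ended without 12 of the 15 birds, those other than fed birds 2 and 3 and fasted bird 2 (up to 0.136).

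Other genes of proglucagon handling were not called. The convertase PCSK2 differed by -0.18 and its chaperone SCG5 by 0.06, the peptidase DPP4, which inactivates glucagon-like peptides, by 0.80 (adjusted p = 0.354), and the G protein subunit GNAS, which couples the receptor to adenylyl cyclase, by -0.09. With fed birds 4 and 5 left out, PCSK2, SCG5, DPP4 and GNAS were at -0.39, 0.04, 0.49 and -0.17. CREB1, a cAMP-responsive transcription factor, differed by 1.21 (adjusted p = 0.243), with insulin-neutralized birds 3 and 5 at 8.94 and 8.74 and the 3 others at 6.19 to 6.55. Markers of pancreas were looked at beside GCG. INS, PPY, IAPP and CELA1 were at the floor in all 10 birds. The summed level of 11 pancreas markers was 9.73, 7.75, 11.51, 7.45 and 7.45 in fed birds and 11.90, 9.40, 7.91, 8.82 and 8.40 in insulin-neutralized birds, and amylase (AMY2A) ranged from 6.80 to 11.22 and from 7.55 to 11.48. Fed bird 3 and insulin-neutralized bird 1, the highest of their groups for the summed level, read 7.11 and 8.40 for GCG. The part of these markers in the GCG difference was not tested. Of 8 gut markers on the array, VIL1, CDX1 and FABP2 were at or near the floor in all 10 birds. FABP6 read 6.73 to 7.49 in fed and 7.16 to 7.42 in insulin-neutralized birds, and CCK 4.55 to 7.99 and 4.21 to 5.40. The CCK difference was -1.11 (adjusted p = 0.263), and -0.65 without fed birds 4 and 5.

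All 8 genes of the protein folding lists that were called by some probe set were lower. Over all 9243 genes, 36 were called lower by some probe set. The chaperonin CCT is a ring of different subunits that folds actin and tubulin, and HSP70 and HSP90 with their cochaperones fold many kinases and steroid receptors. Among 13 chaperonin and prefoldin genes, 12 lay below 0, 10 were lower at an unadjusted p under 0.05 and none was higher, and the median was -0.31 against -0.03 over all genes. Without fed birds 4 and 5 the count was 8 and the median -0.29. CCT3 was the single call. It read 9.05, 9.27, 8.84, 9.19 and 9.39 in fed and 8.30, 8.42, 8.29, 8.62 and 8.61 in insulin-neutralized birds, with no overlap (-0.70 ± 0.11, adjusted p = 0.0197), and 8.77 to 8.94 in fasted birds. CCT6A (-0.43), CCT7 (-0.54), CCT5 (-0.36) and CCT4 (-0.36) had adjusted p-values from 0.065 to 0.119.

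Among 38 genes of the HSP70 and HSP90 systems, 4 were called by some probe set, all lower, and 3 with 1 probe set for each gene. In this list 14 were lower and 2 higher at an unadjusted p under 0.05 (median -0.22, and 13 and 1 without fed birds 4 and 5). AHSA1, which activates the ATPase of HSP90, fell from 11.66 ± 0.11 to 10.97 ± 0.10 (SD, n = 5 each), with fed birds at 11.54 to 11.83 and insulin-neutralized birds at 10.82 to 11.11 (-0.70 ± 0.09, adjusted p = 0.0051). HSPA8, the constitutive HSP70, read 14.15 to 14.44 in fed and 13.65 to 13.94 in insulin-neutralized birds (-0.51 ± 0.09, adjusted p = 0.0338). In fasted birds HSPA8 read 14.06 to 14.39, and the insulin-neutralized birds lay below them too (-0.42, adjusted p = 0.0212). FKBP4, an HSP90 cochaperone of steroid receptors, fell by 0.44 (adjusted p = 0.0377), and the probe set listed as ST13P5, of the family of the HSP70 cochaperone ST13, by 0.69 (adjusted p = 0.0462). A related immunophilin went the other way without passing the test. FKBP5, named here after its value was seen, is a glucocorticoid-induced HSP90 cochaperone in mammals and read 9.25 to 10.82 in fed and 10.69 to 11.55 in insulin-neutralized birds (1.12 ± 0.25, adjusted p = 0.0615).

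In the endoplasmic reticulum, HSPA5 (BiP), the main HSP70 of the lumen, read 14.52, 14.49, 14.61, 14.86 and 14.18 in fed and 13.47, 13.91, 13.79, 13.76 and 13.65 in insulin-neutralized birds. The groups did not overlap, and the difference was -0.82 ± 0.14 (adjusted p = 0.0292), and -0.82 without fed birds 4 and 5. HYOU1, its nucleotide exchange factor, read 7.78 to 8.02 in fed and 7.28 to 7.41 in insulin-neutralized birds in its called probe set (-0.53 ± 0.07, adjusted p = 0.00834), and a brighter one differed by -0.56 without being called. DHDDS, which makes the dolichol that carries N-glycans, fell by 0.70 (adjusted p = 0.048), with insulin-neutralized bird 5, at 5.48, just under the lowest fed bird. Of 33 genes of folding in this compartment 3 were called by some probe set, all lower, and 1 with 1 probe set for each gene. Here 11 were lower and 1 higher at an unadjusted p under 0.05, with a median of -0.17. Fasted birds averaged 13.73 for HSPA5 and 7.35 for HYOU1, levels that did not differ by the test from the insulin-neutralized ones (adjusted p = 0.982 and 0.967). The AHSA1 and HYOU1 calls held without each bird. The call of CCT3 ended without insulin-neutralized birds 1, 2 or 3 (adjusted p up to 0.0756), those of HSPA5 and HSPA8 without any single insulin-neutralized bird and without fed bird 4, among others (up to 0.106 and 0.109), and those of FKBP4, ST13P5 and DHDDS without 13 or 14 of the 15 birds (up to 0.137).

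Genes of protein synthesis were lower in smaller numbers. AIMP2, a scaffold of the multisynthetase complex that holds tRNA synthetases, fell from 11.02 ± 0.15 to 10.44 ± 0.12 (SD, n = 5 each; -0.58 ± 0.10, adjusted p = 0.0316), and was the single call among 20 genes of that list, of which 7 were lower and none higher at an unadjusted p under 0.05 (3 when fed birds 4 and 5 were left out). FARSA and AARS1 differed by -0.60 and -0.51 (adjusted p = 0.0671 and 0.18), AARS1 by -0.33 with fed birds 4 and 5 left out. NACA, which shields nascent chains at the ribosome, fell by 0.51 (adjusted p = 0.0462), and ELP3, the catalytic subunit of the Elongator complex that modifies tRNA, by 0.56 (adjusted p = 0.0448). The 4 kept NACA probe sets ran from -0.54 to -0.06. NHP2, of the box H/ACA particles that guide pseudouridylation and serve telomerase, read 9.90, 9.48, 9.60, 10.25 and 9.68 in fed and 8.65, 8.79, 9.17, 8.99 and 9.34 in insulin-neutralized birds (-0.79 ± 0.16, adjusted p = 0.0462). The groups did not overlap, the closest birds being fed bird 2 and insulin-neutralized bird 5. Of 43 ribosome biogenesis genes NHP2 alone was called, through a probe set other than its highest, and 12 were lower and none higher at an unadjusted p under 0.05 (9 when fed birds 4 and 5 were left out). NIP7, RRP12 and NOP16 differed by -0.67, -0.66 and -0.60, with adjusted p-values from 0.0656 to 0.101. RRP12 was also below its level in fasted birds (-0.63, adjusted p = 0.0324).

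Among 12 genes of polyamine synthesis and its regulators AZIN1 was the single call. Amino acid supply was not counted as a list and included the called gene SLC7A3. AZIN1, which protects ornithine decarboxylase from its antizyme, fell from 13.02 ± 0.22 to 12.38 ± 0.18 (SD, n = 5 each; -0.65 ± 0.12, adjusted p = 0.0338). Its other kept probe set was at -0.06. The oxidase SMOX (-1.07), spermidine synthase SRM (-0.43) and the decarboxylase itself, listed as ODC (-0.70), had adjusted p-values of 0.0812, 0.158 and 0.219, and SRM was at -0.25 with fed birds 4 and 5 left out. SMOX was at 6.76 to 7.61 in insulin-neutralized birds, 7.73 to 9.22 in fed birds and 8.33 to 9.19 in fasted birds, and differed between insulin-neutralized and fasted birds (-1.55, adjusted p = 0.00463). SLC7A3, a carrier of arginine and lysine, fell by 0.54 (adjusted p = 0.0459). BMT2, known in humans as SAMTOR, a methionine-linked brake on mTORC1, rose from 9.18 ± 0.24 to 9.87 ± 0.09 (SD, n = 5 each; 0.70 ± 0.11, adjusted p = 0.0197). Calls of AIMP2, NACA, ELP3, NHP2, AZIN1 and SLC7A3 ended without 7 to 13 of the 15 birds, each of insulin-neutralized birds 1 to 5 and fed bird 1 among them (adjusted p up to 0.137), and that of BMT2 without insulin-neutralized birds 1, 2 or 3 (up to 0.0812).

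Called genes of protein breakdown were mostly higher, but ULK3 and MTMR4, described below, were lower. FBXO8, an F-box protein, one of the substrate adaptors of cullin ubiquitin ligases, had the smallest adjusted p of the comparison, 0.00267, in a probe set that read 7.48, 7.05, 7.10, 7.29 and 7.34 in fed and 8.38, 8.47, 8.08, 8.32 and 8.35 in insulin-neutralized birds (1.06). Each insulin-neutralized bird exceeded each fed bird, and each fasted bird, at 9.03 to 9.49, exceeded each insulin-neutralized bird (insulin-neutralized minus fasted -0.99, adjusted p = 0.000255). The study's quantitative PCR also found FBXO8 significantly raised in both groups against fed birds. By PCR, however, insulin-neutralized and fasted birds did not differ significantly, unlike on the arrays. A further FBXO8 probe set rose by 0.79 (adjusted p = 0.0338). UHRF2, a RING-type ubiquitin ligase that binds modified cytosine, rose from 7.48 ± 0.29 to 8.26 ± 0.07 (SD, n = 5 each; 0.79 ± 0.13, adjusted p = 0.0292). Of 43 F-box proteins and other ligases these 2 were called, and 14 were higher and 3 lower at an unadjusted p under 0.05, where 8.34% of all genes were higher at that p, with a median of 0.06. Without fed birds 4 and 5 the counts were 10 and 1.

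PSME4, the activator PA200 of the proteasome, read 11.67, 11.64, 11.34, 10.92 and 11.21 in fed and 12.64, 12.51, 12.01, 12.21 and 12.03 in insulin-neutralized birds. The groups did not overlap, the difference was 0.93 ± 0.16 (adjusted p = 0.0292), a further probe set gave 0.98, and fasted birds read 12.91 to 13.16. PSME4 stood alone in its group. Of 33 proteasome genes 31 lay below 0, 13 were lower at an unadjusted p under 0.05 and PSME4 alone was higher, and the median was -0.19. The median was -0.13 and the count of lower genes 5 without fed birds 4 and 5. The proteasome subunits PSMC5 (-0.53), PSMB7 (-0.25) and PSMB3 (-0.39) had adjusted p-values from 0.0736 to 0.181, and were at -0.34, -0.14 and -0.21 with those birds left out.

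In autophagy and the lysosome, CTSV, a lysosomal cathepsin, rose from 13.65 ± 0.15 to 14.28 ± 0.08 (SD, n = 5 each), with the highest fed bird at 13.91 and the lowest insulin-neutralized bird at 14.20 (0.63 ± 0.10, adjusted p = 0.0197). UVRAG, a partner of Beclin 1 in the lipid kinase complex that forms autophagosomes, rose by 0.53 (adjusted p = 0.0481). ULK3, a relative of the autophagy kinase ULK1, fell. It read 7.27, 6.91, 6.70, 6.93 and 7.07 in fed and 6.25, 6.44, 5.54, 6.53 and 5.92 in insulin-neutralized birds, without overlap (-0.84 ± 0.17, adjusted p = 0.0459), while fasted birds read 6.64 to 6.97 and exceeded the insulin-neutralized birds (insulin-neutralized minus fasted -0.64, adjusted p = 0.0477). MTMR4, a phosphatase of endosomal phosphoinositides, fell by 0.55 (adjusted p = 0.0396). Of 38 autophagy and lysosome genes, 5 were higher and 3 lower at an unadjusted p under 0.05, and the median was -0.02. The call of FBXO8 in its first probe set held without each bird, those of CTSV, PSME4 and UHRF2 ended without insulin-neutralized birds 1, 2 or 3 (PSME4 also bird 4, UHRF2 also birds 4 and 5, adjusted p up to 0.106), and those of UVRAG, ULK3 and MTMR4 without 11 to 14 of the 15 birds (up to 0.123).

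**Figure D3:**
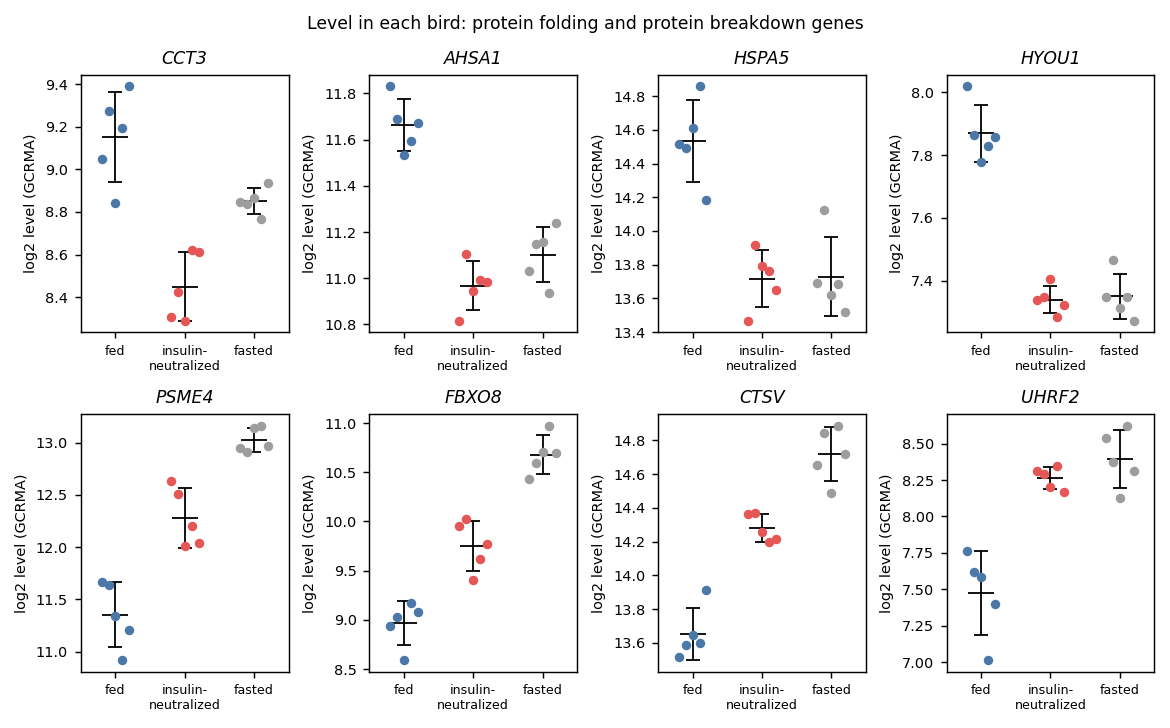
Log2 level (y axis) in each bird of the 3 groups, with 5 points a group and bars at the mean ± SD. The folding genes CCT3, AHSA1, HSPA5 and HYOU1 were lower in insulin-neutralized than in fed birds (top), and PSME4, FBXO8, CTSV and UHRF2 were higher (bottom, FBXO8 by its brighter called probe set), with no overlap between fed and insulin-neutralized points in any panel.

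Cell surface receptors moved in both directions. AGTR1, the angiotensin II receptor of vessels and fat cells, read 9.89, 9.55, 9.19, 9.12 and 10.06 in fed and 10.96, 10.66, 10.25, 10.54 and 10.56 in insulin-neutralized birds (1.04 ± 0.19, adjusted p = 0.0352), and 11.37 to 11.97 in fasted birds. Each group lay apart from the next. It was the single call among 9 genes of the renin-angiotensin system. IFNAR1, a chain of the type I interferon receptor, rose by 0.55 (adjusted p = 0.0476), with fasted birds a further 1.15 higher (adjusted p = 0.000146). CRIM1, a transmembrane protein that binds bone morphogenetic proteins, read 11.94 to 12.06 in fed and 12.41 to 12.57 in insulin-neutralized birds, groups well apart (0.50 ± 0.07, adjusted p = 0.0183), and DCBLD2 rose by 0.46 (adjusted p = 0.0316).

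Other receptors were lower. FGFRL1, a fibroblast growth factor receptor without a kinase domain, read 10.70, 11.13, 10.46, 10.84 and 10.75 in fed and 9.57, 9.71, 9.91, 8.99 and 9.86 in insulin-neutralized birds (-1.17 ± 0.21, adjusted p = 0.0338). MST1R, the receptor tyrosine kinase RON, read 6.51, 6.77, 6.58, 7.09 and 6.63 in fed and 5.88, 6.0, 5.89, 5.89 and 6.02 in insulin-neutralized birds (-0.78 ± 0.14, adjusted p = 0.0338). Neither pair of groups overlapped. DDR2, a collagen-binding receptor kinase, fell by 0.50 (adjusted p = 0.0352), and the tyrosine phosphatase PTP4A3 read 9.55, 9.25, 9.59, 10.08 and 9.77 against 8.81, 8.85, 8.97, 8.30 and 9.04 (-0.85 ± 0.15, adjusted p = 0.0338), again with the groups apart.

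Several other called genes of signalling and cell structure were higher. ICA1, an islet autoantigen that sits on secretory granules in endocrine cells, read 8.73, 9.11, 8.95, 8.52 and 8.44 in fed and 9.87, 9.46, 9.38, 9.65 and 9.83 in insulin-neutralized birds (0.89 ± 0.18, adjusted p = 0.0459). The junction scaffold MAGI1 was called in 3 probe sets, the brightest at 10.78, 11.21, 11.05, 10.65 and 10.73 in fed and 12.07, 11.65, 11.70, 11.50 and 11.70 in insulin-neutralized birds (0.84 ± 0.13, adjusted p = 0.0197). Its 6 kept probe sets ran from -0.16 to 0.92. Neither gene's groups overlapped. IP6K2, which makes inositol pyrophosphates, rose by 0.83 and 1.03 in its called probe sets (adjusted p = 0.0352 and 0.0197), alone among 7 inositol phosphate kinase genes. SEPTIN14 rose by 0.80 and 0.84, alone among 9 septins. CHP1, a calcineurin-like calcium-binding protein, rose by 0.56 and RANBP9, a scaffold of a ubiquitin ligase complex, by 0.53, while DYNLL2, a dynein light chain, fell by 0.68 and 0.67. Single birds ended most of these calls: AGTR1 8 birds, IFNAR1 15, FGFRL1 9, MST1R 6, PTP4A3 9, DDR2 11, ICA1 11 and IP6K2 10, with insulin-neutralized birds 1 to 5 among them in each case and adjusted p-values up to 0.143. The calls of SEPTIN14, CHP1, RANBP9, DYNLL2 and DCBLD2 ended without 6 to 12 birds (up to 0.137). CRIM1 and the brightest MAGI1 probe set lost their calls only when any of 2 or 3 particular insulin-neutralized birds was left out singly (up to 0.0756).

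The insulin signalling genes themselves were not called. Of 38 measured, 4 were higher and 5 lower at an unadjusted p under 0.05, with a median of 0.07. SOCS3, an inhibitor of cytokine and insulin receptors, read lower (7.55 to 9.57 in fed, 6.21 to 7.73 in insulin-neutralized birds, -1.43 ± 0.39, adjusted p = 0.119, and -0.87 without fed birds 4 and 5). The phosphatidylinositol 3-kinase subunits PIK3CA and PIK3CB and the Rab regulator TBC1D1 read higher by 1.07, 0.83 and 0.38 (adjusted p = 0.15, 0.179 and 0.216). Those values were 0.50, 0.32 and 0.20 without fed birds 4 and 5, which were the lowest fed birds for all 3 genes. Among 20 genes known as FOXO targets in mammals, PDK4 was the single call, and 8 were higher and none lower at an unadjusted p under 0.05 (9 and none without fed birds 4 and 5), with a median of 0.18. SESN1 and BNIP3, a sestrin and a mitophagy receptor, differed by 0.47 and 0.46 (adjusted p = 0.0599 and 0.0894), and GADD45A and CAT by 0.44 and 0.39 (adjusted p = 0.191 and 0.156). The study also assayed SESN1 and BNIP3 by quantitative PCR and found both significantly raised by insulin neutralization. With fed birds 4 and 5 left out, BNIP3 and GADD45A passed the test at 0.62 and 0.70 (adjusted p = 0.0294 and 0.0398), and CAT was at 0.19.

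Regulators of adipocytes and of the clock were not called either. CEBPA and PPARG, which drive fat cell differentiation, differed by -0.76 and -0.39 (adjusted p = 0.239 and 0.318) and the adiponectin receptor ADIPOR1 by -0.27, or -0.07 without fed birds 4 and 5. Of 17 clock genes 6 were higher and 2 lower at an unadjusted p under 0.05, and 1 and 3 without fed birds 4 and 5. BHLHE40 (-0.68), CRY2 (-0.27), CSNK1D (0.40) and ARNTL (0.44) had adjusted p-values from 0.123 to 0.169, and CSNK1D was at 0.25 without those birds.

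**Figure D4:**
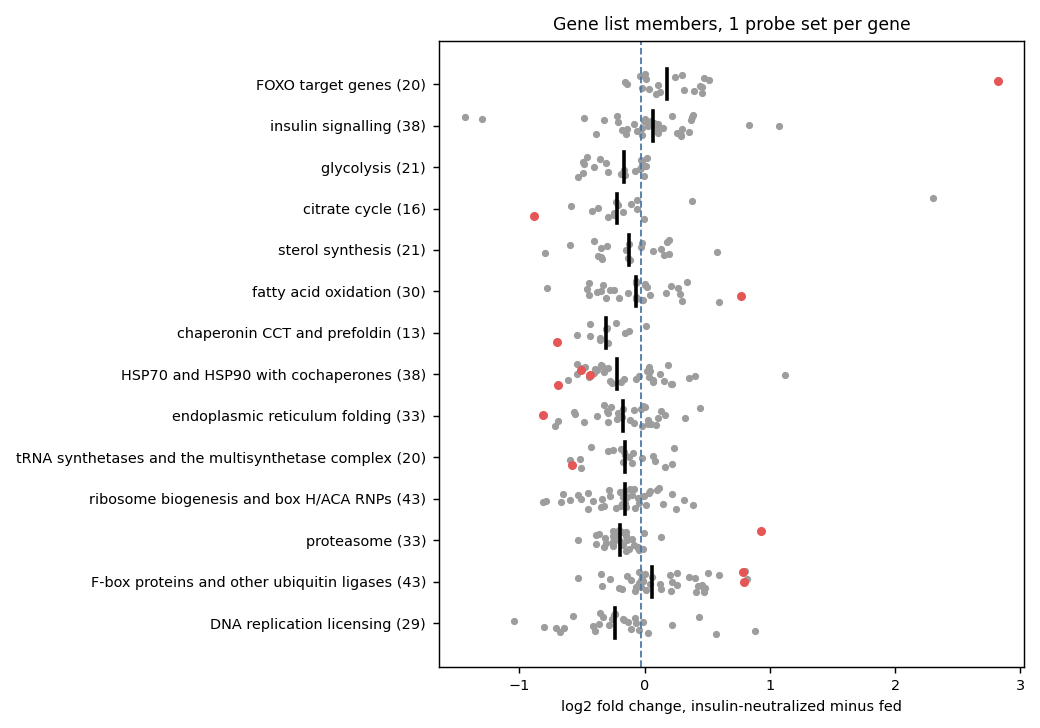
Each point is the log2 fold change (x axis, insulin-neutralized minus fed) of 1 gene of the list named on the y axis, with the number of genes tested in brackets. Black bars are list medians, the dashed line is the median of all 9243 genes (-0.03), and red points are calls. Among the lists shown, the bar of chaperonin CCT and prefoldin (-0.31) is farthest to the left and that of the FOXO targets (0.18) farthest to the right. The clock list, not shown, had a median of 0.20, and 0.16 without fed birds 4 and 5.

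Called genes of the nucleus went both ways. DOT1L, which methylates a lysine in the core of histone H3, fell by 0.64 (adjusted p = 0.0359) and SETD7, a lysine methyltransferase of histone H3 and other proteins, by 0.70 (adjusted p = 0.0338). They were the 2 calls among 24 histone methyltransferase genes, whose median was -0.02. The 3 kept DOT1L probe sets ran from -0.70 to -0.10. CDT1, which loads the replicative helicase onto DNA, fell from 7.54 ± 0.17 to 6.89 ± 0.17 (SD, n = 5 each; -0.65 ± 0.13, adjusted p = 0.0377), through a probe set other than its highest. Of 29 replication licensing genes 10 were lower and none higher at an unadjusted p under 0.05 (6 when fed birds 4 and 5 were left out), with a median of -0.24. MCM2 (-0.65), ORC6 (-1.05) and MCM5 (-0.80) had adjusted p-values of 0.0656, 0.0773 and 0.131. TOE1, an exonuclease that matures small nuclear RNA, fell by 0.65 (adjusted p = 0.0338), while its other kept probe set was at 0.06. MED13L, of the Mediator kinase module, rose by 0.68, MBTD1, a histone reader, by 0.43, and CTDSPL, a phosphatase of RNA polymerase II, by 0.43. The 3 kept MED13L probe sets ran from 0.17 to 0.91, and the other kept MBTD1 probe set was at 0.09.

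A few called genes of the mitochondria were lower. PMPCA, of the peptidase that trims imported mitochondrial proteins, fell by 0.54 (adjusted p = 0.0338), GRSF1, which binds mitochondrial RNA, by 0.52 (adjusted p = 0.0292), and FAHD1, a mitochondrial oxaloacetate decarboxylase, by 0.64 (adjusted p = 0.0377). The other kept PMPCA probe set was at -0.10. BAK1, which permeabilizes the mitochondrial outer membrane in apoptosis, read 6.93, 7.03, 7.32, 7.32 and 7.38 in fed and 5.76, 6.54, 6.54, 6.33 and 6.46 in insulin-neutralized birds (-0.87 ± 0.18, adjusted p = 0.047), with insulin-neutralized bird 1 well below the rest and no overlap. It was the single call among 15 genes of the BCL2 family, and BCL2 itself and CYCS differed by 0.49 and -0.29 (adjusted p = 0.165 and 0.249). The nuclear and mitochondrial calls ended without 6 to 13 of the 15 birds, each of insulin-neutralized birds 1 to 5 among them, with adjusted p-values up to 0.137.

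Several of the largest differences lay in genes outside these groups. PLEKHH2, a pleckstrin homology and FERM domain protein, read 7.13, 7.15, 7.91, 6.46 and 7.0 in fed and 8.96, 8.48, 8.25, 8.07 and 8.25 in insulin-neutralized birds (1.27 ± 0.24, adjusted p = 0.0377). The probe set listed as TCP11X2 read 11.05, 11.15, 11.02, 10.54 and 9.94 against 11.99, 11.48, 12.03, 11.92 and 11.58 (1.06 ± 0.20, adjusted p = 0.0377), and 0.72 apart without fed birds 4 and 5. In both genes the lowest insulin-neutralized bird lay only just above the highest fed bird.

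PCMTD1, a relative of the methyltransferase that repairs isoaspartate, read 11.88, 12.30, 11.91, 11.54 and 11.45 in fed and 13.05, 12.98, 12.71, 12.66 and 12.65 in insulin-neutralized birds (1.0 ± 0.16, adjusted p = 0.0197). SLC2A11L5, of the family of sugar carriers, read 6.16, 6.29, 6.67, 6.03 and 6.07 against 7.33, 7.29, 6.72, 7.68 and 7.15 (0.99 ± 0.18, adjusted p = 0.0338). Fed bird 3 and insulin-neutralized bird 3 were nearly level for that carrier. TBCK, a kinase-like Rab regulator, read 6.46, 6.58, 6.60, 6.20 and 6.13 against 7.39, 7.14, 7.92, 7.68 and 6.82 (1.0 ± 0.20, adjusted p = 0.0448), while the lowest of its 3 probe sets kept differed by -0.21.

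On the lower side, EEPD1, of the endonuclease and phosphatase family, read 11.10, 10.91, 11.19, 11.35 and 11.15 in fed and 9.85, 9.73, 10.09, 9.16 and 10.58 in insulin-neutralized birds (-1.26 ± 0.25, adjusted p = 0.0462). ANKRD9, an ankyrin repeat protein, read 7.89, 8.23, 8.06, 8.55 and 8.26 against 6.66, 7.25, 6.87, 7.20 and 7.34 (-1.13 ± 0.22, adjusted p = 0.0449). Insulin-neutralized bird 5 came closest to the fed birds in both. BTBD11 fell by 0.63 (adjusted p = 0.0425). Of the 17 called probe sets without a symbol 13 were higher and 4 lower. The one with the largest change read 3.46 to 5.07 in fed, 5.12 to 6.14 in insulin-neutralized and 3.18 to 4.53 in fasted birds (1.77 against fed, adjusted p = 0.0338; 1.91 against fasted, adjusted p = 0.00487). The calls of PCMTD1 ended without insulin-neutralized birds 1, 2 or 3 (up to 0.0771) and the others of these genes without 8 to 13 of the 15 birds (up to 0.134).

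The comparison with fasted birds places these genes on a longer scale. Both comparisons share the 5 fed arrays, so their fold changes are given side by side and no relation between them is drawn. Fasted birds differed from fed birds in 9.64% and from insulin-neutralized birds in 4.06% of all probe sets tested. Of the 92 probe sets 26 were called between insulin-neutralized and fasted birds. The 92 were chosen by the same 5 insulin-neutralized arrays, so the 26 cannot be weighed against the share over all probe sets. Of the 50 higher ones, 15 were below fasted birds on the arrays, PDK4, FBXO8, PSME4, AGTR1 and IFNAR1 among them, and 2 were above. Of the 42 lower ones, 5 were above fasted birds, PPP1R3B, DYNLL2 and DDR2 among them, and 4 were below: HSPA8, GRSF1, ULK3 and BAK1. In those last 4 genes fasted birds differed from fed birds by -0.09, -0.16, -0.20 and -0.18, with adjusted p-values from 0.269 to 0.591.

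**Figure D5:**
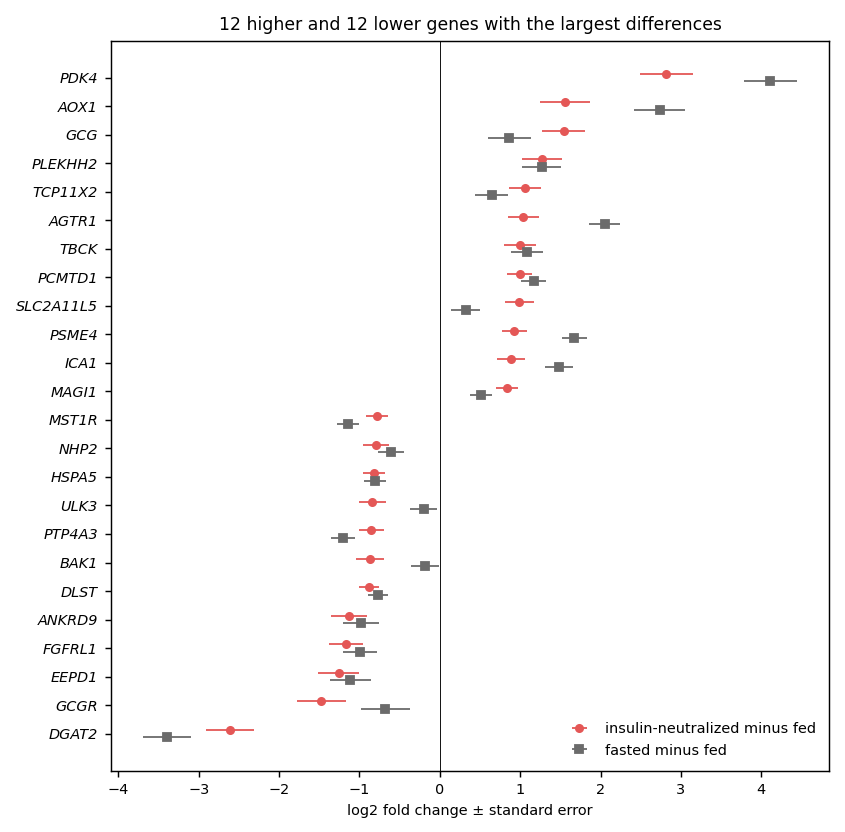
Log2 fold change (x axis, mean and standard error) against fed birds of insulin-neutralized birds (red circles) and fasted birds (grey squares) for the 12 higher and 12 lower called genes with the largest differences. The grey square lies farther from 0 for PDK4 (4.11) and AGTR1 (2.05), and nearer to 0 for GCG (0.86), GCGR (-0.68), ULK3 (-0.20) and BAK1 (-0.18).

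Other genes separated the treatments on these arrays, where fasted birds differed from fed birds and insulin-neutralized birds were not seen to. Sterol synthesis was the clearest group. Among its 21 measured genes none was called between insulin-neutralized and fed birds, where 1 was higher and 2 lower at an unadjusted p under 0.05 and the median was -0.13. Against fed birds, 11 were lower in fasted birds (5.77% of all genes were), with a median of -1.11, and 10 exceeded their fasted level in insulin-neutralized birds (1.69% of all genes did), with a median of 0.91. FDFT1, squalene synthase, and NSDHL, a sterol dehydrogenase, were chosen after their values were seen and lay 1.42 and 2.37 above fasted birds (adjusted p = 0.00311 and 0.00216), and -0.35 and -0.30 from fed birds. The genes with the smallest p against fed birds, HSD17B7 (-0.80), SREBF2 (-0.41), INSIG1 (0.57) and MVD (-0.35), had adjusted p-values from 0.233 to 0.323, and SREBF2 and INSIG1 were at -0.25 and 0.30 with fed birds 4 and 5 left out.

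Single genes gave the same contrast on the arrays. DUSP5, a phosphatase of nuclear ERK, read 6.59 to 8.68 in insulin-neutralized, 7.08 to 8.46 in fed and 10.50 to 11.38 in fasted birds (-3.25 against fasted, adjusted p = 0.000168; -0.01 against fed). The early growth response factor EGR1 and its binding partner NAB1 lay 1.58 and 1.21 below fasted birds (adjusted p = 0.00187 and 0.000175), and differed by -0.60 and 0.07 from fed birds (adjusted p = 0.22 and 0.797). IL10RB, a cytokine receptor chain, and the homeobox factor PBX3 differed by -0.71 and 0.75 from fasted birds (adjusted p = 0.001 and 0.000503) and by 0.04 and 0.06 from fed birds. With fed birds 4 and 5 left out, DUSP5, EGR1, IL10RB and PBX3 differed from fed birds by 0.25, -0.34, 0.06 and 0.10. The median standard error over all probe sets was 0.177, so small differences from fed birds could be missed in these genes. The study also assayed them by quantitative PCR. By that method, insulin neutralization significantly raised DUSP5, NAB1, IL10RB and PBX3 against the fed state, and EGR1 did not differ significantly. Against the fasted state, PCR found DUSP5 and EGR1 significantly lower and PBX3 significantly higher in insulin-neutralized birds. For NAB1 and IL10RB the PCR difference from fasted birds was not significant. PBX3 did not differ significantly between fasted and fed birds by PCR. The array contrast therefore does not show that these genes respond to fasting alone.

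Cell type markers were set beside the results. Adipocyte markers summed to 17.5 to 17.8 in fed and 17.5 to 17.7 in insulin-neutralized birds. Singly, 7 of these 8 markers lay below 0 and 1 above, with a median of -0.22, and -0.30 without fed birds 4 and 5. None was called, and 2 were lower at an unadjusted p under 0.05. Endothelial markers summed to 14.5 to 15.4 in fed birds, lowest in fed bird 4, and to 15.3 to 15.7 in insulin-neutralized birds (exact permutation test, two-sided, p = 0.0714). Of these 8 markers 5 lay above 0 and 3 below, and none was called. PECAM1 and CDH5 differed by 0.47 and 0.45 and KDR by -0.84. With fed birds 4 and 5 left out, these 3 were at 0.13, 0.24 and -0.99. Lymphocyte markers summed to 14.99 to 15.43 and 14.64 to 15.05 (exact p = 0.0794), with CD79B, LCK and ZAP70 at the floor. Fed birds 4 and 5 had the highest of these sums (15.43 and 15.29), and fed birds 1 to 3 read 15.04, 14.99 and 15.03. Most of the sum came from BLB1, which read 14.89 to 15.35 in fed and 14.54 to 14.94 in insulin-neutralized birds. Of the 7 lymphocyte markers that passed the filter 2 lay above 0 and 5 below, and none was called. CD3D differed by -0.41 and PTPRC by 0.48, or -0.19 and -0.08 without fed birds 4 and 5. The smallest p this design allows is 0.00794. Liver markers summed to 13.5 to 14.7 in fed and 13.9 to 15.9 in insulin-neutralized birds (exact permutation test, two-sided, p = 0.429). Of the 4 that passed the filter 3 lay above 0 and 1 below, APOA1 at -0.13, and none was called. Without fed birds 4 and 5 APOA1 was at 0.11. ALB read 4.50 to 7.85 in fed, 5.86 to 15.07 in insulin-neutralized and 3.31 to 15.59 in fasted birds. Insulin-neutralized birds 1, 4 and 5 read higher for ALB than any fed bird. The part of these markers in the called differences was not tested.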

How the data were processed

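Total RNA of abdominal fat from 15 birds was hybridized to 1-colour Affymetrix Chicken Genome arrays. The deposited values are log2 levels after background correction and normalization by the authors with GCRMA, and R 2.9.0 and RMA are also named in the submitters' processing notes. Control probe sets (96) and probe sets below 3 on at least 5 of the 15 arrays (19827) were left out. The rest were fitted with limma 3.58.1 in R 4.3.3, with the 3 groups in 1 fit and no covariate (residual df 12), and p-values were Benjamini-Hochberg adjusted within each comparison over all 18612 probe sets. List counts used the probe set of a gene that was brightest on average, except where a gene is said to be called by some or another probe set. Called genes are described by the brightest of their called probe sets. Every called gene with 1 symbol could be named, the 12 higher and 12 lower with the largest change by every bird. Uncalled genes were the smallest p of a list, those the study names, and all of the proglucagon and pyruvate dehydrogenase lists. Members and lists were chosen with earlier results of these data known. Symbols came from the platform annotation. Alternatives changed the filter, scaling, moderation, weights, covariate, adjustment and birds used. The fit was tested on simulated data. The number of arrays limits the precision. No sequences were analysed here.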

Additional observations from a re-analysis of the deposited data

Results flagged for a closer look

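In 9 of 296 groups of 5 birds tested for the named genes, the lowest or highest bird stood far from the other 4, and chance alone gives about 1 in 20. Insulin-neutralized bird 1 was high for SEPTIN14 (11.14, others 10.69 to 10.71) and low for BAK1 (5.76, others 6.33 to 6.54) and NIP7 (8.87, others 9.17 to 9.24). Insulin-neutralized bird 4 was low for CEBPA (7.31, others 8.44 to 8.66) and PDHB (11.91, others 12.07 to 12.11), and bird 3 for MOGAT1 (2.51, others 3.35 to 3.46). Fed bird 2 was low for DYNLL2 (11.83, others 12.22 to 12.37) and high for NAB1 (5.14, others all 5.06). Fed bird 4 was low for CSNK1D (9.27, others 9.86 to 10.02).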

How the results depend on the processing

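Every one of the 92 called differences kept its direction in each alternative that tested it, but the number called did not hold. The count of 92 (50 higher, 42 lower) became 41 (22 and 19) with no filter, 6 (3 and 3) with only fed and insulin-neutralized birds in the fit, 55 (35 and 20) after median centring of each array, 187 (105 and 82) under array weights, 383 (167 and 216) when p-values of the 3 comparisons were adjusted jointly, 37 (20 and 17) with the poly-A level as a covariate, and 31 (19 and 12) without fed birds 4 and 5. It was 92, 99, 90 and 81 with the other reading of the filter, a mean of at least 5, trend and robust moderation, and 1 probe set per gene. Leaving out 1 bird gave 7 to 142 (2 to 63 higher, 4 to 79 lower). The replicate block gave 8 calls (3 higher, 5 lower), all among the 92. The labels do not say that a number marks a shared litter or day. Deviations of same-numbered birds correlated at 0.0867, -0.0708, 0.3301, 0.2311 and 0.215, so not every pair deviated together, and the numbers were not taken as pairs. As a hint the other way, 4 of 5 birds correlated best with their own number. Among uncalled genes near 0 the sign turned for PDK3 (array weights -0.0278, without fed birds 4 and 5 -0.0487, 1 bird left out -0.012 to 0.0829), PDK1 (in the same order -0.0638, -0.11, and -0.0541 to 0.10), PDP1 (-0.0394, -0.0704, and -0.0175 to 0.14), SCG5 (poly-A covariate -0.0206, 1 bird left out -0.15 to 0.25), DUSP5 (array weights 0.24, poly-A covariate 0.18, without fed birds 4 and 5 0.25, 1 bird left out -0.26 to 0.27) and IL10RB (1 bird left out -0.00574 to 0.0792). Among the cell type markers, the sign also turned without fed birds 4 and 5 for APOA1 (0.11) and PTPRC (-0.08). The cause was not tested.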
